A study of Mus musculus with 24 samples.

Results

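The genes described here are the 39 protein-coding Hox genes of the mouse HoxA, HoxB, HoxC and HoxD clusters, out of 56748 genes in the count table. They were chosen by gene type and by a gene symbol made of Hox, a cluster letter from a to d and a number, with no use of measured values. HoxA held 11 of them, HoxB 10, HoxC 9 and HoxD 9. The study measured poly(A) RNA by bulk sequencing in primary cells of the hindlimb of mice less than 5 days old. Cells came from mdx mice (C57BL/10-Dmdmdx), in which Dmd, the gene of dystrophin, is mutated in every cell, and from C57 mice (C57BL/10), their background strain. Myotubes, the fused muscle cells that had been differentiated from primary myoblasts, received 1 µM of the mineralocorticoid hormone aldosterone or the vehicle DMSO at 0.001% for 48 h, and then fresh medium for 15 h before lysis. That conditioned medium, called aldosterone medium or vehicle medium below, was given for 24 h to fibroblasts, the matrix-forming cells of the muscle. Charcoal-stripped horse serum, which is low in steroids, was used for the hormone and for the conditioned medium in every group. Fibroblasts received medium of myotubes of their own line, so effects of the line on the cell and through its medium cannot be told apart. Before treatment myotubes had been kept in F10 with horse serum and fibroblasts in DMEM with fetal bovine serum, so the cell types also differed in culture history. The 8 groups were mdx myotubes with aldosterone, mdx myotubes with vehicle, C57 myotubes with aldosterone, C57 myotubes with vehicle, mdx fibroblasts in aldosterone medium, mdx fibroblasts in vehicle medium, C57 fibroblasts in aldosterone medium and C57 fibroblasts in vehicle medium, with 3 libraries each. The libraries are labelled as biological replicates 1 to 3, and the sources used here do not say whether a replicate is 1 animal or a pool of animals.

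Hox genes encode homeodomain transcription factors that give cells their position along the body axis and along the limb. Within a cluster, genes at the 3′ end (low numbers) are used early and towards the head, and genes at the 5′ end (high numbers) late, towards the tail and towards the tip of the limb. Genes of the same number in different clusters are paralogues, and fibroblasts taken from adult tissues are known to keep a Hox pattern of their site of origin.

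On the deposited build mm39, HoxA lay on chromosome 6 from 52132570 to 52237788, HoxB on chromosome 11 from 96085142 to 96259082, HoxC on chromosome 15 from 102829538 to 102945278 and HoxD on chromosome 2 from 74498654 to 74595486. Some gene models overlap on the same strand. The Hoxc5 model spans Hoxc6, Hoxc8, Hoxc9 and Hoxc10, the Hoxa3 model spans Hoxa4, Hoxa5 and Hoxa6, and Hoxd3 overlaps Hoxd4, so the counts of Hoxc5, Hoxa3 and Hoxd3 and of the genes they span are uncertain. The library kit did not mark strand, so reads of antisense RNAs such as Hoxa11os, Hotairm1, Hoxaas3 and Hoxb5os cannot be told apart from those of the genes they overlap.

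Library totals were 14133165 to 31144746 counts in myotubes and 16964960 to 42698139 in fibroblasts. Levels are CPM, the count of a gene scaled to a fixed library total after TMM scaling. Dmd, which checks the line labels, had 35.3 to 70.1 CPM in the 6 mdx myotube libraries and 352 to 485 CPM in the 6 C57 ones. In fibroblasts it had 7.28 to 12.2 CPM in mdx and 23.1 to 37.0 CPM in C57. The summed level of 8 myotube markers was 12765 to 26227 CPM in myotubes and 3.92 to 83.9 CPM in fibroblasts. The summed level of 8 fibroblast markers was 226 to 3646 CPM in myotubes and 12079 to 22746 CPM in fibroblasts, with Tcf21 at 0 in every library. Among myotube libraries that sum was highest in mdx replicate 2, at 3646 CPM with aldosterone and 3413 CPM with vehicle, against 1035 to 1731 CPM in the other 4 mdx libraries and 226 to 755 CPM in the C57 libraries.

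A Hox gene was counted as expressed in a group when it reached 1 CPM in all 3 libraries. By this count 26 members were expressed in mdx myotubes with aldosterone, 27 in mdx myotubes with vehicle, 27 in C57 myotubes with aldosterone and 25 in C57 myotubes with vehicle. In fibroblasts 23 were expressed in mdx cells in aldosterone medium, 26 in mdx cells in vehicle medium and 24 in C57 cells in each medium. In all 8 groups, 20 members were expressed: 8 of HoxA, Hoxb9 of HoxB, 8 of HoxC, and Hoxd8, Hoxd9 and Hoxd10 of HoxD. Expressed in none were Hoxb1, Hoxb2, Hoxb3, Hoxb5, Hoxb13, Hoxd1, Hoxd3, Hoxd4 and Hoxd12. Hoxb4 and Hoxb8 met the count in all 4 myotube groups and in no fibroblast group, and Hoxd11 in all 4 fibroblast groups and in no myotube group. At their 3′ ends, groups 1 to 3 of HoxB and groups 1 to 4 of HoxD thus missed the count in every group, whereas all 9 HoxC genes met it in 7 of the 8 groups.

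**Figure D1:**
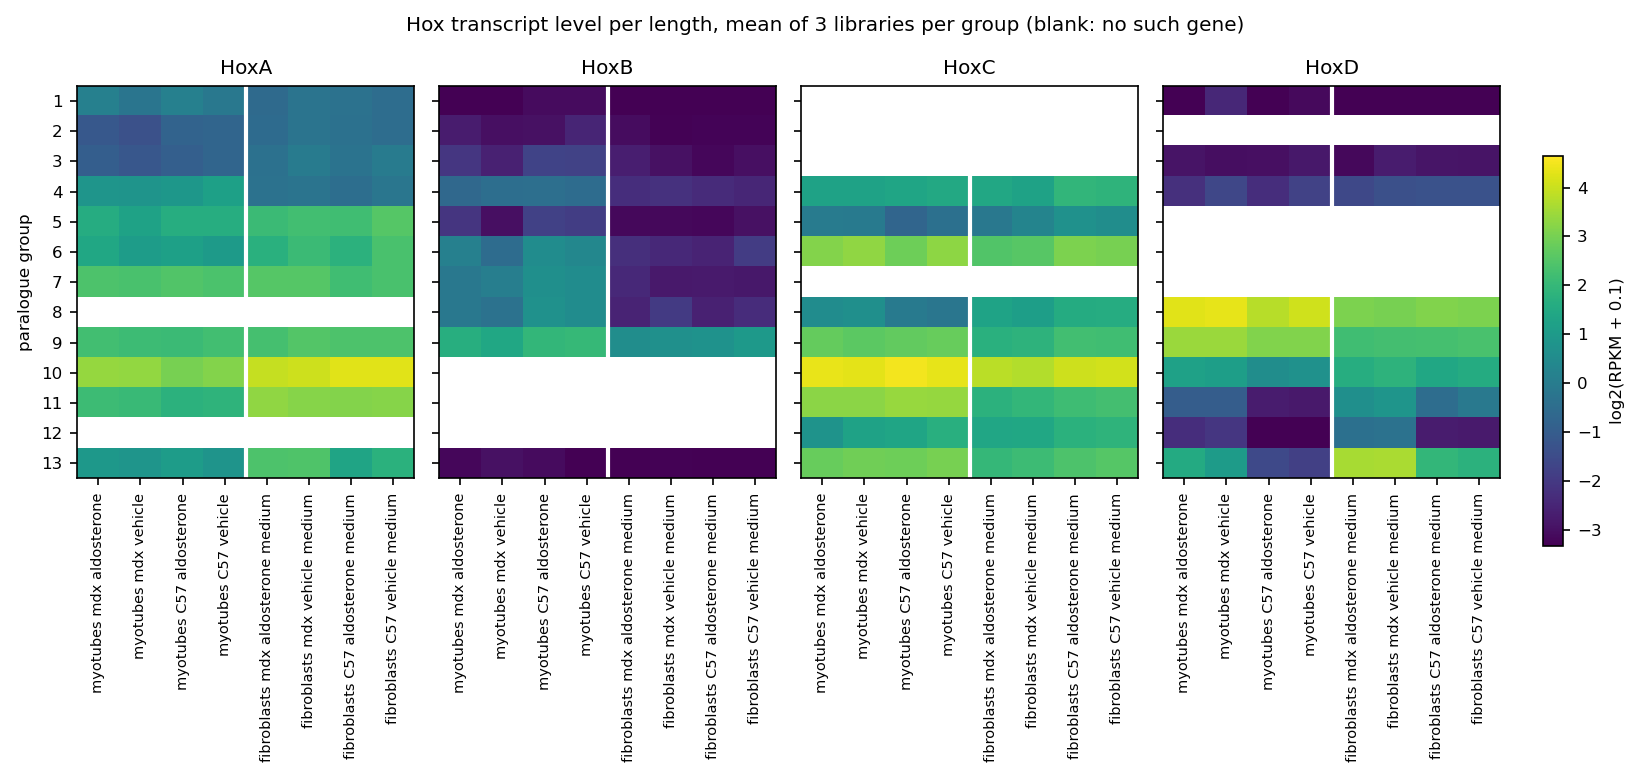
Mean level of each Hox gene per length, as log2(RPKM + 0.1), in the 8 groups (columns; myotubes left of the white line, fibroblasts right), with 1 panel per cluster and 1 row per paralogue group; white cells have no gene. Hoxb4, Hoxb6, Hoxb7 and Hoxb8 are brighter in myotubes, HoxD groups 11 to 13 are brighter in fibroblasts, and Hoxc10, Hoxd8 and Hoxa10 are among the brightest cells.

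To compare genes with each other, CPM was divided by exon length in kilobases (RPKM). Per length and averaged over the 6 libraries of both lines, the 3 highest members in vehicle myotubes were Hoxc10, Hoxd8 and Hoxc11, and those in vehicle-medium fibroblasts were Hoxa10, Hoxc10 and Hoxa11. The third place differed between the lines. In mdx myotubes Hoxd9 (10.7 RPKM), Hoxa10 (10.1 RPKM) and Hoxc6 (10.0 RPKM) averaged above Hoxc11 (9.45 RPKM), and in mdx fibroblasts Hoxd13 (12.2 RPKM) averaged above Hoxa11 (9.10 RPKM). All are genes of the middle and 5′ parts of the clusters, and the group 10 and 11 paralogues are known for patterning the lumbosacral spine and the hindlimb. Hoxc10 had 18.4, 19.9 and 21.6 RPKM in mdx and 21.8, 19.1 and 20.4 RPKM in C57 vehicle myotubes, against 14.3, 10.5 and 14.7 RPKM in mdx and 16.7, 17.9 and 16.8 RPKM in C57 vehicle-medium fibroblasts. Hoxa10 had 8.29, 11.5 and 10.6 RPKM in mdx and 8.42, 8.84 and 9.11 RPKM in C57 vehicle myotubes, against 19.6, 14.8 and 15.0 RPKM in mdx and 19.7, 20.2 and 18.4 RPKM in C57 vehicle-medium fibroblasts. For Hoxc10 every one of these myotube libraries lay above every fibroblast library, and for Hoxa10 every one lay below. Hoxa11, a paralogue needed for the middle segment of the limb, had 3.30 to 4.78 RPKM in vehicle myotubes and 8.20 to 10.2 RPKM in vehicle-medium fibroblasts. Hoxc11 had 8.14 to 10.7 RPKM in vehicle myotubes and 2.87 to 5.48 RPKM in vehicle-medium fibroblasts, so these 2 group 11 paralogues held opposite orders.

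Summed over a cluster and set against the sum of all Hox genes, HoxA made up 24.4% to 25.7% of the Hox RPKM in the 4 myotube group means and 41% to 42.9% in the 4 fibroblast ones. HoxB made up 4.17% to 7.31% in myotubes and 1.52% to 1.75% in fibroblasts. HoxC made up 43.2% to 48.1% in myotubes and 30.8% to 40.6% in fibroblasts. HoxD made up 19.2% to 26.6% in myotubes and 16% to 24.8% in fibroblasts. The ranges of HoxA, HoxB and HoxC did not overlap between the cell types and those of HoxD did. By paralogue group, the group 8 and 9 sums were higher in every myotube library (15.3 to 25.4 and 20.8 to 25.9 RPKM) than in any fibroblast library (8.66 to 13 and 13.3 to 18.4 RPKM), whereas the group 11 sums overlapped (12.5 to 15.0 and 12.5 to 16.5 RPKM).

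Whether the 2 cell types of the same muscle hold the same Hox pattern was tested in each line under vehicle. Of the 39 members, 34 passed the filter on low counts, and the other 5 were Hoxb1, Hoxb2, Hoxb13, Hoxd1 and Hoxd3. In mdx, 25 of the 34 were called at an adjusted p below 0.05, 13 higher and 12 lower in myotubes, where 70.5% of all genes tested were called. In C57 also 25 were called, 13 higher and 12 lower, where 74.7% of all genes were called. The libraries of the cell types did not overlap for 26 members in mdx and 24 in C57, against 71.9% and 78.9% of all genes. The share of Hox genes that differed was thus close to that of all genes in both lines. The lists of 25 shared 20 members, and all 20 had the same direction. In these bulk samples, fewer cells of a type and less RNA per cell cannot be told apart.

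**Figure D2:**
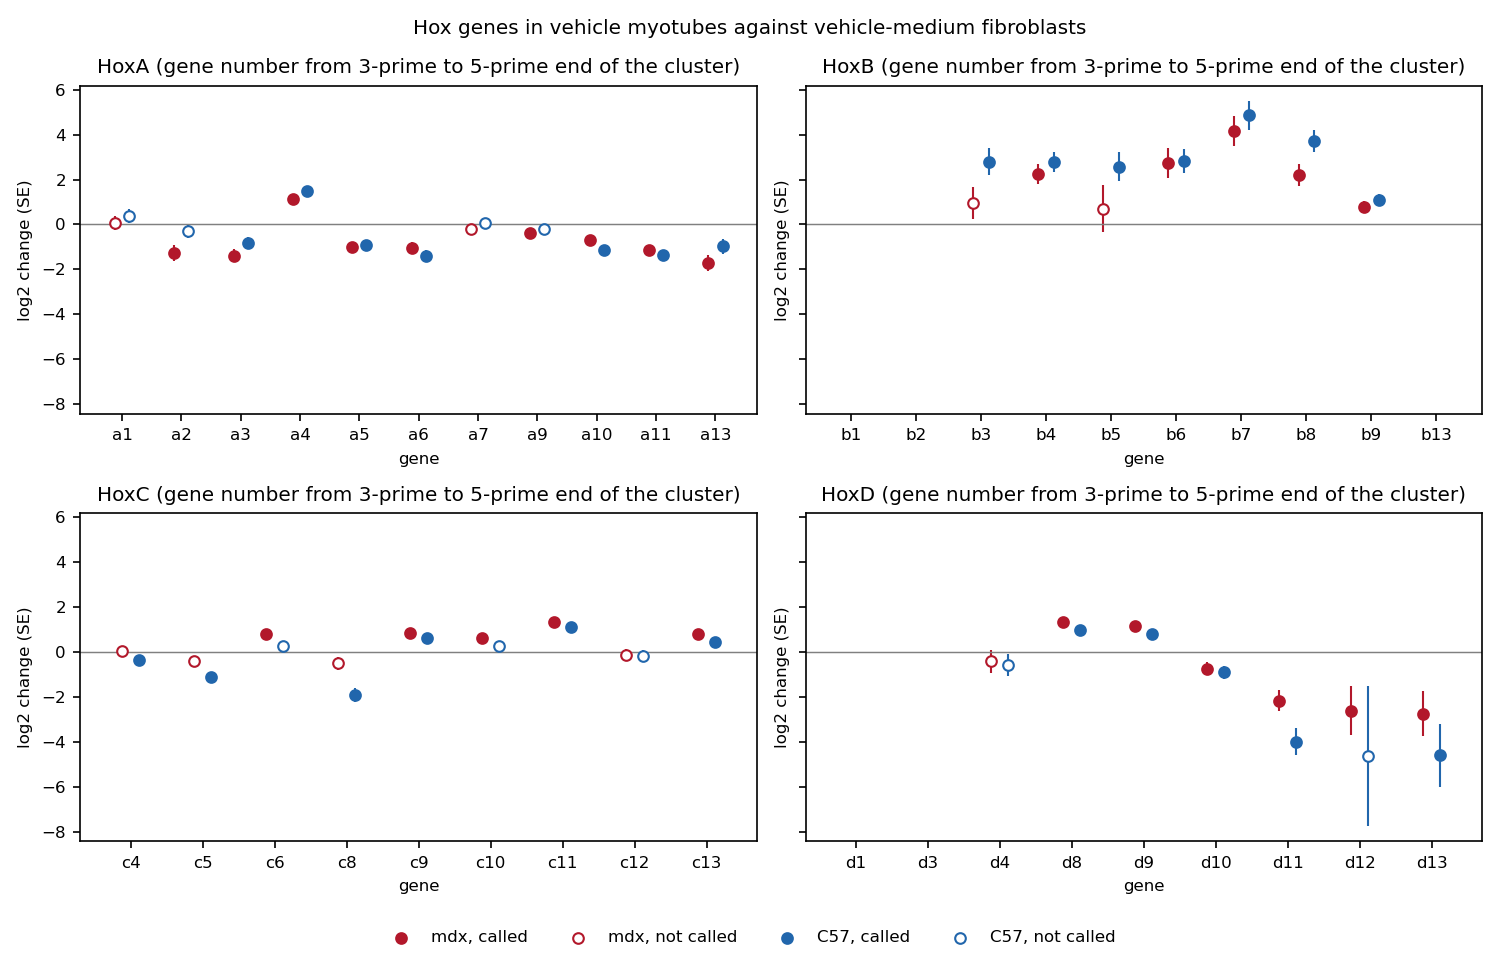
Log2 change of each tested Hox gene in vehicle myotubes against vehicle-medium fibroblasts in mdx (red) and C57 (blue), with its standard error, by position in the cluster; filled points passed the adjusted p threshold of 0.05. Every HoxB point lies above 0 with Hoxb7 highest, and in HoxD the points of Hoxd8 and Hoxd9 lie above 0 and those of Hoxd4 and of Hoxd10 to Hoxd13 below 0.

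HoxB genes were higher in myotubes. All 7 tested HoxB members were called higher in C57 myotubes, and 5 of 7 in mdx ones. In both lines all 7 changes were positive. The median log2 change was 2.20 in mdx and 2.80 in C57, against medians over all genes of -0.017 and -0.028. In the fibroblast libraries taken alone, 2 of these 7 (Hoxb6 and Hoxb9) passed the filter on low counts, so the other 5 were tested because of their level in myotubes. Across all genes, 35.5% in mdx and 36.7% in C57 were called higher in myotubes. Hoxb8, a gene of the trunk region also known from blood progenitors, had 1.15, 2.39 and 1.99 CPM in mdx myotubes, against 0.582, 0.324 and 0.304 CPM in mdx fibroblasts. In C57 it had 1.77, 5.53 and 3.49 CPM in myotubes, against 0.283, 0.330 and 0.200 CPM in fibroblasts. The cell types did not overlap in either line, and C57 myotube replicate 2 was the highest library. The fibroblast values of Hoxb8 were 6 to 15 counts per library. The log2 change of Hoxb8 was 2.20 ± 0.50 (SE) in mdx (edgeR adjusted p = 0.000535) and 3.71 ± 0.49 in C57 (edgeR adjusted p = 6.18e-07). Hoxb7 had 1.05, 2.09 and 1.30 CPM in mdx myotubes, against 0.0529, 0.0865 and 0.0761 CPM in mdx fibroblasts. C57 cells had 0.840, 3.39 and 2.03 CPM in myotubes, against 0.0708, 0.0330 and 0.1 CPM in fibroblasts. The fibroblast values of Hoxb7 were 1 to 4 counts per library, so its log2 changes of 4.17 ± 0.68 in mdx and 4.86 ± 0.65 in C57 rest on few reads (edgeR adjusted p = 1.42e-05 and 7.73e-07).

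Hoxb4 had 1.15, 1.35 and 2.44 CPM in mdx myotubes, against 0.265, 0.541 and 0.114 CPM in mdx fibroblasts, and 1.17, 1.83 and 1.67 CPM in C57 myotubes, against 0.307, 0.198 and 0.134 CPM in C57 fibroblasts. Hoxb6 had 0.949, 1.20 and 1.45 CPM in mdx myotubes, against 0.106, 0.0865 and 0.342 CPM in mdx fibroblasts, and 1.17, 3.43 and 2.40 CPM in C57 myotubes, against 0.401, 0.165 and 0.401 CPM in C57 fibroblasts. Both genes lie in the middle of the cluster, and neither overlapped between the cell types. In these fibroblast libraries Hoxb4 had 3 to 25 counts and Hoxb6 had 2 to 17, so both also rest on few reads. Their log2 changes were 2.25 ± 0.43 and 2.75 ± 0.66 in mdx (edgeR adjusted p = 0.000101 and 0.000922) and 2.80 ± 0.44 and 2.83 ± 0.55 in C57 (edgeR adjusted p = 8.31e-06 and 0.000101). Hoxb3 passed the test in C57 only, with 0.420, 1.12 and 0.944 CPM in C57 myotubes against 0.165, 0 and 0.167 CPM in C57 fibroblasts and a log2 change of 2.80 ± 0.61 (edgeR adjusted p = 0.000312). In mdx its log2 change was 0.96 ± 0.70 (edgeR adjusted p = 0.23), and the difference between lines, -1.84 ± 0.95, was not called (edgeR adjusted p = 0.465). Hoxb9, at the 5′ side, had 5.27 to 8.08 CPM in mdx myotubes against 3.31 to 4.66 CPM in mdx fibroblasts.

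Markers of other cell types moved with the HoxB levels only in part. The summed level of 7 macrophage markers was 2.37, 14.2 and 5.35 CPM in mdx and 5.83, 162 and 97.0 CPM in C57 vehicle myotubes, against 6.05 to 9.23 CPM in vehicle-medium fibroblasts. The summed level of 4 endothelial markers was 12.3, 18.6 and 19.4 CPM in mdx and 36.2, 75.5 and 54.8 CPM in C57 vehicle myotubes, against 1.27 to 3.36 CPM in vehicle-medium fibroblasts. In mdx myotube replicates 1 and 3 the macrophage sum thus lay below that of every vehicle-medium fibroblast library. Among mdx vehicle myotubes that sum was highest in replicate 2, and so were Hoxb7, Hoxb8 and Hoxb9. The other tested HoxB genes, Hoxb3, Hoxb4, Hoxb5 and Hoxb6, were highest in replicate 3 there. None of these 11 markers was at 0 throughout a vehicle group. C57 replicate 2 was highest in both sums and in Hoxb3, Hoxb4, Hoxb6, Hoxb7, Hoxb8 and Hoxb9 among C57 vehicle myotubes, and their part in the HoxB result was not tested. With replicate 2 of every group left out, an alternative chosen after seeing the data, the change of Hoxb8 was 1.80 in mdx (edgeR adjusted p = 0.0178) and 3.37 in C57 (edgeR adjusted p = 0.000194), and that of Hoxb7 was 4.02 in mdx and 3.99 in C57. The myotube replicates kept there include C57 replicate 3, whose macrophage sum was 97.0 CPM, and their endothelial sums, 12.3 CPM or more, all lay above those of the fibroblasts.

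The clusters also hold microRNA genes that repress Hox transcripts. The mature forms from RefSeq (GRCm38.p6) are shown for the miR-196 and miR-10 families, with the seed (bases 2 to 8) in capitals, beside the stretch of a Hoxb8 transcript (GENCODE M21) closest to the full complement of miR-196a, since Hoxb8 is its textbook target and one of the genes that differed between the cell types. Capitals in the Hoxb8 line mark bases complementary to miR-196a.
mmu-miR-196a-5p: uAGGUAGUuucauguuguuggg
mmu-miR-196b-5p: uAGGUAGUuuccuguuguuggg
mmu-miR-10a-5p: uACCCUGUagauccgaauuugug
mmu-miR-10b-5p: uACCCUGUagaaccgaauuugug
Hoxb8 transcript, best match to miR-196a: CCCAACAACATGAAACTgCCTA
The pair in each family share a seed. Of the 22 bases of miR-196a, 21 were complementary to bases 2208 to 2229 of the 2635-base transcript, and the remaining 1 can form a G:U pair. Mature microRNAs were not measured by this poly(A) assay. Reads counted to the Mir196a-1 locus on chromosome 11 were few, at 0.0933 to 0.535 CPM in vehicle myotubes and 0.228 to 0.953 CPM in vehicle-medium fibroblasts, and Mir196b had 0 counts in all 24 libraries.

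HoxD was split along its length. Hoxd8 and Hoxd9 were higher in myotubes, and Hoxd10, Hoxd11 and Hoxd13 were lower in myotubes, in both lines. Hoxd12 was called lower in mdx myotubes and was not called in C57, but in the myotube libraries taken alone it did not pass the filter on low counts, so it was tested because of its level in fibroblasts. Across all genes, 35.1% in mdx and 38% in C57 were called lower in myotubes. The 5′ genes of HoxD are those known for patterning the hand and foot. Promoters are shown for 5 HoxD genes on both sides of this split (250 bases before the start, RefSeq, GRCm38.p6). Hoxd11 is left out because 2 starts are listed for it. Capitals mark matches on either strand to a motif. The letters searched for the TATA box were TATAAA. Those for the CCAAT box were CCAAT. Those for the GC box were GGGCGG. Those for the E-box used by the MyoD family of muscle factors were CAGCTG.
Hoxd13 (chr2:74667975-74668224, + strand): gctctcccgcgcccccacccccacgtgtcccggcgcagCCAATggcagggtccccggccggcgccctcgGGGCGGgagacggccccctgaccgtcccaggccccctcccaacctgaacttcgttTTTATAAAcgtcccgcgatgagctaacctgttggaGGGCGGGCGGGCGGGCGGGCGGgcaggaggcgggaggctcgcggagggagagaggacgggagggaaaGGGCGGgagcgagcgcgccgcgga
Hoxd12 (chr2:74674763-74675012, + strand): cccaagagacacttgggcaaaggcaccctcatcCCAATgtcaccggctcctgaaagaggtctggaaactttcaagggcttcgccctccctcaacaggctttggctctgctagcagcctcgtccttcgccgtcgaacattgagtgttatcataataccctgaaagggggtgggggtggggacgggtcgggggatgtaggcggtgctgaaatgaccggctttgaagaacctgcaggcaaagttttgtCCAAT
Hoxd10 (chr2:74691641-74691890, + strand): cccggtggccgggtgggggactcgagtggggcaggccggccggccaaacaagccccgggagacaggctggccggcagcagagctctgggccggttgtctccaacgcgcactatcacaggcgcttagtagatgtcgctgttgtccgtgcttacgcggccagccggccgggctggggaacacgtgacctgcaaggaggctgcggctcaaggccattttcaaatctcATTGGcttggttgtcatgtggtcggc
Hoxd9 (chr2:74697513-74697762, + strand): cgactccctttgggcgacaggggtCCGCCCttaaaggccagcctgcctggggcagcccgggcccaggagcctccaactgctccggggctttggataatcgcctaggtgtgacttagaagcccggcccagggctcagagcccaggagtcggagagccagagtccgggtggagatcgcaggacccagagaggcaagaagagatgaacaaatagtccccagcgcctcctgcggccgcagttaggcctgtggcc
Hoxd8 (chr2:74704365-74704614, + strand): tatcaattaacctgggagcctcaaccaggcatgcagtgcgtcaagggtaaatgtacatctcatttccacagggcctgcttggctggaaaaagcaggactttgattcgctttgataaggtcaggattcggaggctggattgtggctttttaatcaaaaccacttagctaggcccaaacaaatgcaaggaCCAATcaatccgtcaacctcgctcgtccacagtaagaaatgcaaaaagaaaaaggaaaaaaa
Hoxd13 held 7 overlapping or separate GC box matches, 1 CCAAT match and a TATA box match that reads on both strands over shared bases. Hoxd12 held 2 CCAAT matches, Hoxd10 and Hoxd8 held 1 CCAAT match each, and Hoxd9 held 1 GC box match. None of the 5 held the E-box letters. Of 32851 promoters in the table, 12.4% held the TATA box letters in the same 250 bases, 33.8% the CCAAT box, 32.7% the GC box and 13% the E-box. Promoters were listed for 22 of the 39 Hox genes, with 24 starts. The TATA box letters stood in 4 of these 24, the CCAAT box in 14, the GC box in 10 and the E-box in 3. A match is a description of the letters and not a measured site.

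Hoxd8 had 45.2, 56.1 and 64.5 CPM in mdx myotubes, against 22.7, 20.5 and 22.7 CPM in mdx fibroblasts. In C57 it had 44.6, 45.6 and 47.7 CPM in myotubes, against 20.7, 26.9 and 21.5 CPM in fibroblasts. Its log2 change was 1.33 ± 0.15 in mdx and 1.00 ± 0.15 in C57 (edgeR adjusted p = 9.81e-08 and 3.74e-06), and all myotube libraries lay above all fibroblast libraries. Hoxd9, its neighbour, rose by 1.17 ± 0.17 in mdx and 0.81 ± 0.16 in C57 myotubes. Hoxd10 fell by 0.74 ± 0.30 in mdx and 0.91 ± 0.30 in C57 myotubes (edgeR adjusted p = 0.033 and 0.0104). Hoxd11 had 0.576, 2.47 and 2.06 CPM in mdx myotubes, against 7.09, 9.95 and 4.18 CPM in mdx fibroblasts. C57 cells had 0.233, 0.271 and 0.0727 CPM in myotubes, which are 1 to 8 counts per library, against 3.45, 3.69 and 3.27 CPM in fibroblasts. The log2 change of Hoxd11 was -2.17 ± 0.46 in mdx (edgeR adjusted p = 0.000328) and -4.00 ± 0.60 in C57 (edgeR adjusted p = 5.12e-06).

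Hoxd13, the gene at the 5′ end, had 1.25, 9.43 and 3.97 CPM in mdx myotubes, against 21.8, 50.1 and 19.4 CPM in mdx fibroblasts. In C57 it had 0.0933, 0.102 and 1.16 CPM in myotubes, against 10.2, 1.09 and 13.9 CPM in fibroblasts. The cell types did not overlap in mdx, and in C57 the lowest fibroblast library, replicate 2, lay below the highest myotube library, replicate 3. The log2 change was -2.74 ± 1.00 in mdx (edgeR adjusted p = 0.0211) and -4.61 ± 1.41 in C57 (edgeR adjusted p = 0.00699). The mdx call ended without mdx vehicle myotube replicate 1 (-2.19, edgeR adjusted p = 0.0898) or 3 (-2.67, edgeR adjusted p = 0.0616), or without mdx vehicle-medium fibroblast replicate 2 (-2.16, edgeR adjusted p = 0.0894). Hoxd12 had 0.0678, 0.449 and 0.535 CPM in mdx myotubes, against 0.900, 3.68 and 0.761 CPM in mdx fibroblasts, a log2 change of -2.62 ± 1.09 (edgeR adjusted p = 0.0435). This call ended without any 1 of the 3 mdx vehicle myotube replicates, without mdx vehicle-medium fibroblast replicate 2 (-1.45, edgeR adjusted p = 0.286) and with no filter on low counts. In C57 myotubes Hoxd12 had 0 counts in all 6 libraries, where 3 counts would be 0.102 to 0.218 CPM.

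HoxA genes were mostly lower in myotubes. The change was negative for 9 of 11 in mdx and 8 of 11 in C57. Called lower were 8 of 11 in mdx and 6 of 11 in C57, against 35.1% and 38% of all genes, and Hoxa4 alone was called higher in each. The median log2 change of HoxA was -0.98 in mdx and -0.82 in C57. Hoxa11 had 7.69, 10.9 and 9.78 CPM in mdx myotubes, against 19.5, 22.3 and 20.6 CPM in mdx fibroblasts. Its C57 values were 8.31, 8.31 and 7.56 CPM in myotubes, against 23.4, 18.8 and 19.4 CPM in fibroblasts. The cell types did not overlap, and the log2 change was -1.15 ± 0.16 in mdx (edgeR adjusted p = 1.8e-06) and -1.35 ± 0.16 in C57 (edgeR adjusted p = 1.56e-07). Its antisense RNA Hoxa11os, whose gene model overlaps, fell by 1.37 in mdx and 0.76 in C57 myotubes. Hoxa10 had 27.1, 37.5 and 34.7 CPM in mdx myotubes, against 64.0, 48.4 and 49.0 CPM in mdx fibroblasts, and fell by 0.71 ± 0.13 in mdx and 1.14 ± 0.13 in C57 (edgeR adjusted p = 5.55e-05 and 7.1e-08).

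Hoxa13, the group 13 partner of Hoxd13 in the hand and foot, had 2.71, 4.94 and 4.35 CPM in mdx myotubes, against 13.9, 14.5 and 10.3 CPM in mdx fibroblasts, and fell by 1.73 ± 0.35 (edgeR adjusted p = 0.000219). In C57 it had 4.53, 4.27 and 3.05 CPM in myotubes, against 11.7, 3.36 and 8.52 CPM in fibroblasts, which overlapped through fibroblast replicate 2 (-0.98 ± 0.34, edgeR adjusted p = 0.0148). Hoxa6 had 1.49, 1.42 and 2.37 CPM in mdx myotubes, against 4.92, 3.22 and 2.82 CPM in mdx fibroblasts, and 1.63, 1.76 and 1.67 CPM in C57 myotubes, against 4.65, 3.79 and 4.81 CPM in C57 fibroblasts. Hoxa3 had 1.49, 1.80 and 3.06 CPM in mdx myotubes, against 7.20, 4.39 and 4.68 CPM in mdx fibroblasts, and 2.24, 4.17 and 2.62 CPM in C57 myotubes, against 5.73, 5.27 and 5.15 CPM in C57 fibroblasts. Neither gene overlapped between the cell types. The log2 changes of Hoxa6 and Hoxa3 were -1.06 and -1.39 in mdx and -1.38 and -0.82 in C57, and Hoxa4 rose by 1.13 ± 0.22 in mdx and 1.49 ± 0.21 in C57.

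HoxC was mixed. Hoxc9, Hoxc11 and Hoxc13 were called higher in myotubes in both lines, and Hoxc6 and Hoxc10 in mdx. Hoxc12, which lies between Hoxc11 and Hoxc13, was called in neither line, at 2.37 ± 0.61 CPM in mdx myotubes against 2.68 ± 0.42 CPM in mdx fibroblasts and 3.23 ± 0.51 CPM in C57 myotubes against 3.63 ± 0.21 CPM in C57 fibroblasts (SD, n = 3 each), and its libraries overlapped in both lines. Hoxc11 had 20.3, 16.5 and 20.5 CPM in mdx myotubes, against 9.63, 5.80 and 7.34 CPM in mdx fibroblasts, and 20.2, 20.4 and 21.7 CPM in C57 myotubes, against 11.1, 8.77 and 8.85 CPM in C57 fibroblasts. The cell types did not overlap, and the log2 change was 1.35 ± 0.16 in mdx (edgeR adjusted p = 2.63e-07) and 1.11 ± 0.16 in C57 (edgeR adjusted p = 2.21e-06). Hoxc4, Hoxc5 and Hoxc8 were called lower in C57 myotubes and were not called in mdx. Hoxc8 had 3.83, 5.54 and 3.13 CPM in mdx myotubes, against 6.51, 4.76 and 6.50 CPM in mdx fibroblasts, which overlapped (-0.51 ± 0.30, edgeR adjusted p = 0.136). C57 cells had 2.24, 2.34 and 2.03 CPM in myotubes, against 7.20, 8.50 and 9.29 CPM in fibroblasts (-1.90 ± 0.31, edgeR adjusted p = 1.04e-05). The difference of the Hoxc8 change between the lines was 1.40 ± 0.43 and did not pass the test (edgeR adjusted p = 0.169). Over all 34 members, none passed the test of that difference by edgeR, 7 had an unadjusted p under 0.05, and 0.23% of all genes passed. Taken with its sign, the mdx minus C57 log2 difference was more positive in myotubes for all 9 HoxC and all 7 tested HoxD members. It was more negative there for all 7 tested HoxB members. For HoxC the median line change under vehicle was -0.096 in myotubes and -0.40 in fibroblasts, so it was smaller in size in myotubes. Taken alone, myotube libraries kept 6 HoxB and 5 HoxD members and fibroblast libraries 2 and 7, so some signs rest on genes tested because of 1 cell type.

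The 5′ HoxD genes also set the replicates of a line apart, which was described without a test because the replicates of a line have no further label. Averaged over both media, Hoxd13 had 20.7, 49.0 and 20.7 CPM in mdx fibroblast replicates 1, 2 and 3, and 11.8, 1.15 and 13.7 CPM in C57 fibroblast replicates 1, 2 and 3. The aldosterone and vehicle media of a replicate differed by at most 1.33-fold. Over the replicates of both lines, the highest (mdx replicate 2) and the lowest (C57 replicate 2) differed 42.7-fold. This ratio and those that follow span both lines, so they include the difference between lines. Of all genes in fibroblasts, 0.174% had a ratio as large, and the median ratio was 1.26. Hoxd11 had 10.0 CPM in mdx replicate 2 against 2.73 to 5.67 CPM in the other 5 replicates, and Hoxd12 had 3.82 CPM against 0.741 CPM or less. Hoxa13 was highest in mdx replicate 2, at 15.6 CPM, and lowest in C57 replicate 2, at 3.76 CPM, with a ratio of 4.16. By contrast Hoxd8 and Hoxd9 varied by 1.43-fold and 1.46-fold between replicates. Evx2, the homeobox gene next to Hoxd13, had 4.10 CPM in aldosterone medium and 3.55 CPM in vehicle medium in mdx replicate 2, and 0 and 0.0989 CPM in the same media in C57 replicate 2. Hoxd11, Hoxd12 and Hoxd13 together made up 37.7%, 59.5% and 37% of the HoxD RPKM in mdx fibroblast replicates 1, 2 and 3, and 26.9%, 5.99% and 30.3% in C57 replicates 1, 2 and 3.

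**Figure D3:**
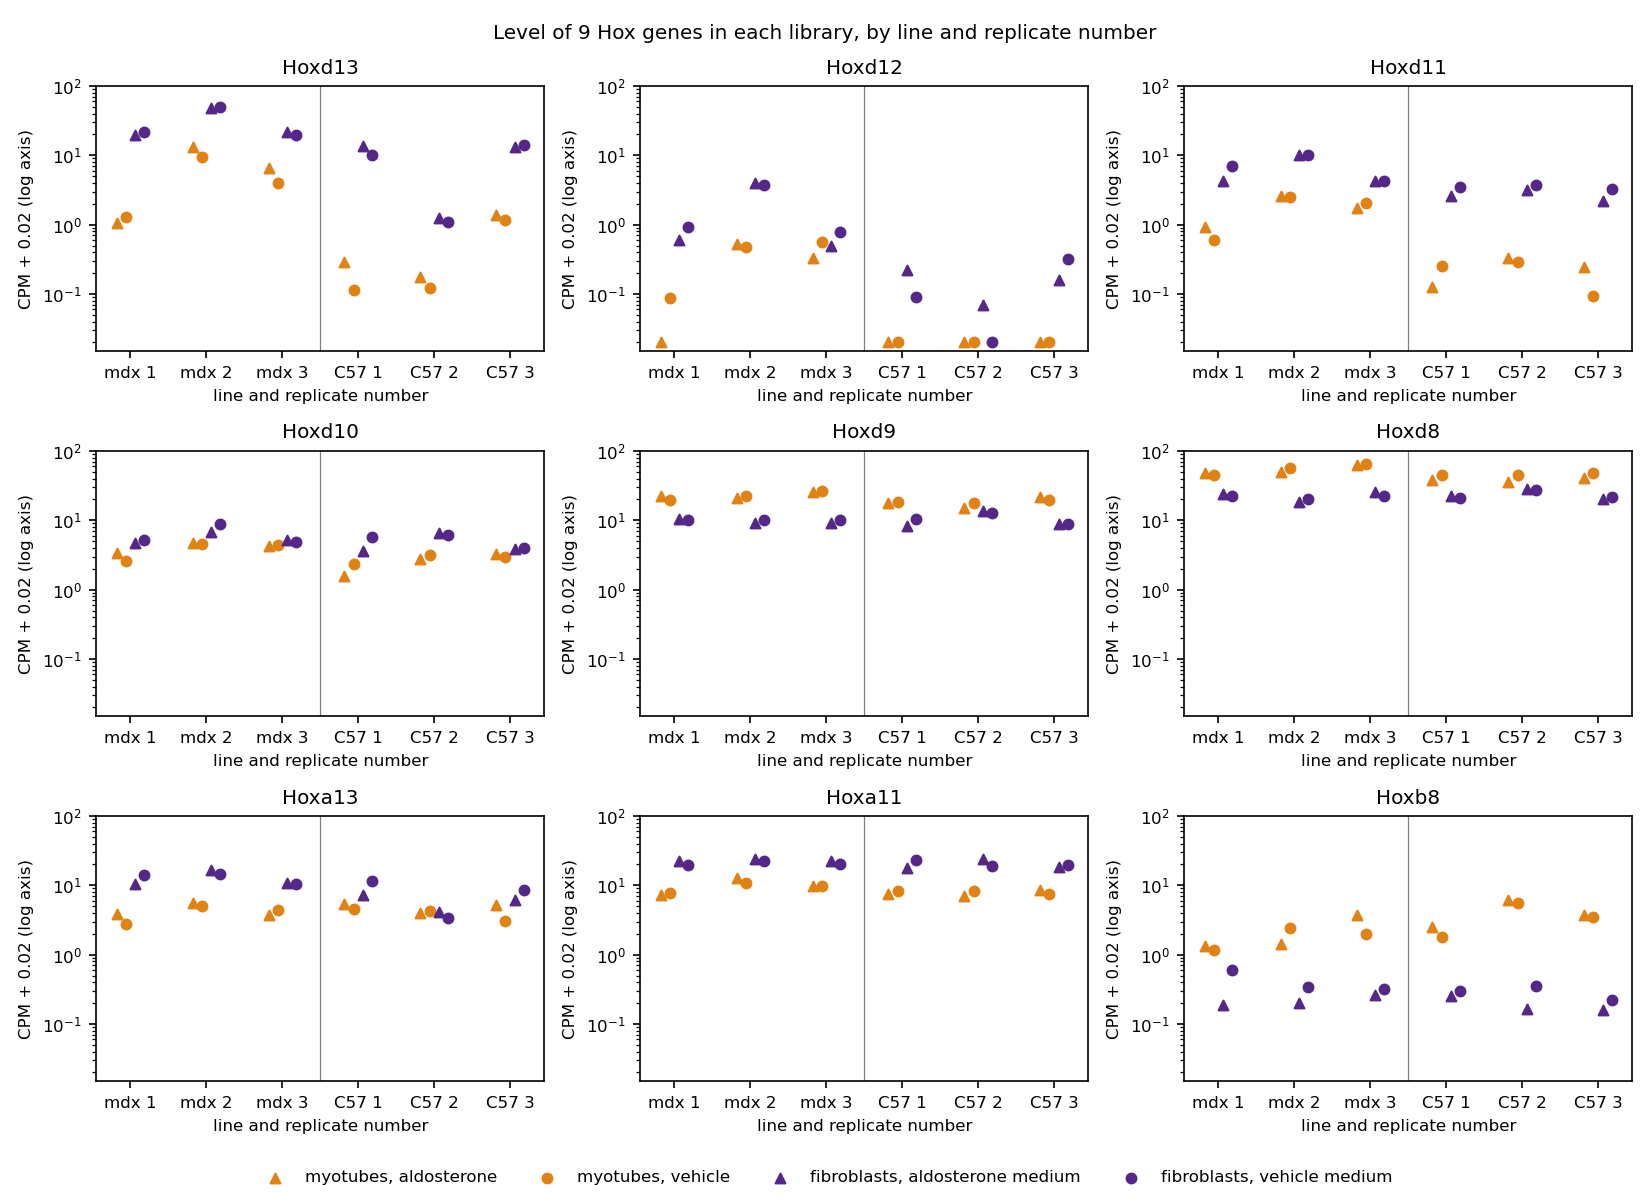
Level of 9 Hox genes in each library (CPM + 0.02, log axis) by line and replicate number, with myotubes in orange and fibroblasts in purple, triangles for aldosterone or aldosterone medium and circles for vehicle or vehicle medium. Hoxd13 in fibroblasts spans 1.09 to 50.1 CPM over the replicates of both lines while the 2 media of a replicate lie close together, and Hoxd8 and Hoxd9 stay nearly level.

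In myotubes the same genes differed between replicates. Averaged over treatments, Hoxd13 had 1.15, 11.4 and 5.23 CPM in mdx replicates 1, 2 and 3, and 0.180, 0.129 and 1.26 CPM in C57 replicates 1, 2 and 3. Over both lines the ratio of highest (mdx replicate 2) to lowest (C57 replicate 2) was 88.6, and 0.73% of genes had one as large. Hoxd13 was highest in mdx replicate 2 in both cell types. In myotubes, mdx replicate 2 also had the highest summed fibroblast markers (3413 CPM with vehicle, against 226 to 1215 CPM in the other 5 vehicle libraries), and the part of fibroblast RNA in these levels was not tested. In fibroblasts that sum was not highest in mdx replicate 2 (12879 CPM in its aldosterone-medium library, with 12079 to 22746 CPM over all 12 libraries). The 2 fibroblast libraries of mdx replicate 2 were the deepest of the series, at 40756528 and 42698139 counts. The C57 replicate 1 library in vehicle medium had 38764711 counts and 431 reads of Hoxd13, against 2316 in mdx replicate 2 in vehicle medium.

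Whether the dystrophin-mutant line alters the Hox pattern was tested within each cell type. In aldosterone myotubes, 0 of 31 tested members passed edgeR's test, with 6 at an unadjusted p under 0.05 and 0.311% of all genes called, and DESeq2 called 1. In vehicle myotubes 0 of 31 passed, with 5 at an unadjusted p under 0.05 and 0.362% of all genes called, and DESeq2 called 1. That gene was Hoxd11 in both. The libraries of the lines did not overlap for 7 of 31 members under aldosterone and 8 of 31 under vehicle, against 18.3% and 19.5% of all genes. Hoxd11 had 0.915, 2.57 and 1.71 CPM in mdx against 0.107, 0.311 and 0.226 CPM in C57 aldosterone myotubes, and 0.576, 2.47 and 2.06 CPM in mdx against 0.233, 0.271 and 0.0727 CPM in C57 vehicle myotubes. For Hoxd11 the lines did not overlap, and the log2 change was 2.92 ± 0.64 with aldosterone (edgeR adjusted p = 0.0929) and 2.92 ± 0.65 with vehicle (edgeR adjusted p = 0.103). All 5 tested HoxD members, of 9, had a positive log2 change in both treatments, with medians of 0.66 with aldosterone and 0.44 with vehicle, and 6 of 6 tested HoxB members with aldosterone and 5 of 6 with vehicle had a negative one. In C57 myotube libraries Hoxd11 had 1 to 8 counts and Hoxd13 had 2 to 30, so both were tested because of their level in mdx. Hoxb3, at 3 to 14 counts in mdx libraries, was tested because of its level in C57. The filter on low counts thus favoured the signs of these genes. Fibroblast markers, at 1035 to 3646 CPM in mdx and 226 to 755 CPM in C57 myotubes, were higher in mdx, as were the means of Hoxd11 and Hoxd13. Within a line the orders differed in part. In mdx myotubes the fibroblast sum and Hoxd13 were both highest in replicate 2 under each treatment. In C57 aldosterone myotubes both were highest in replicate 3. Among C57 vehicle myotubes the fibroblast sum was highest in replicate 2 (755 CPM) and Hoxd13 in replicate 3 (1.16 CPM). Under vehicle, endothelial sums were higher in each C57 than in each mdx myotube library, and macrophage sums overlapped, as given above. The part of these markers in the line differences was not tested.

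**Figure D4:**
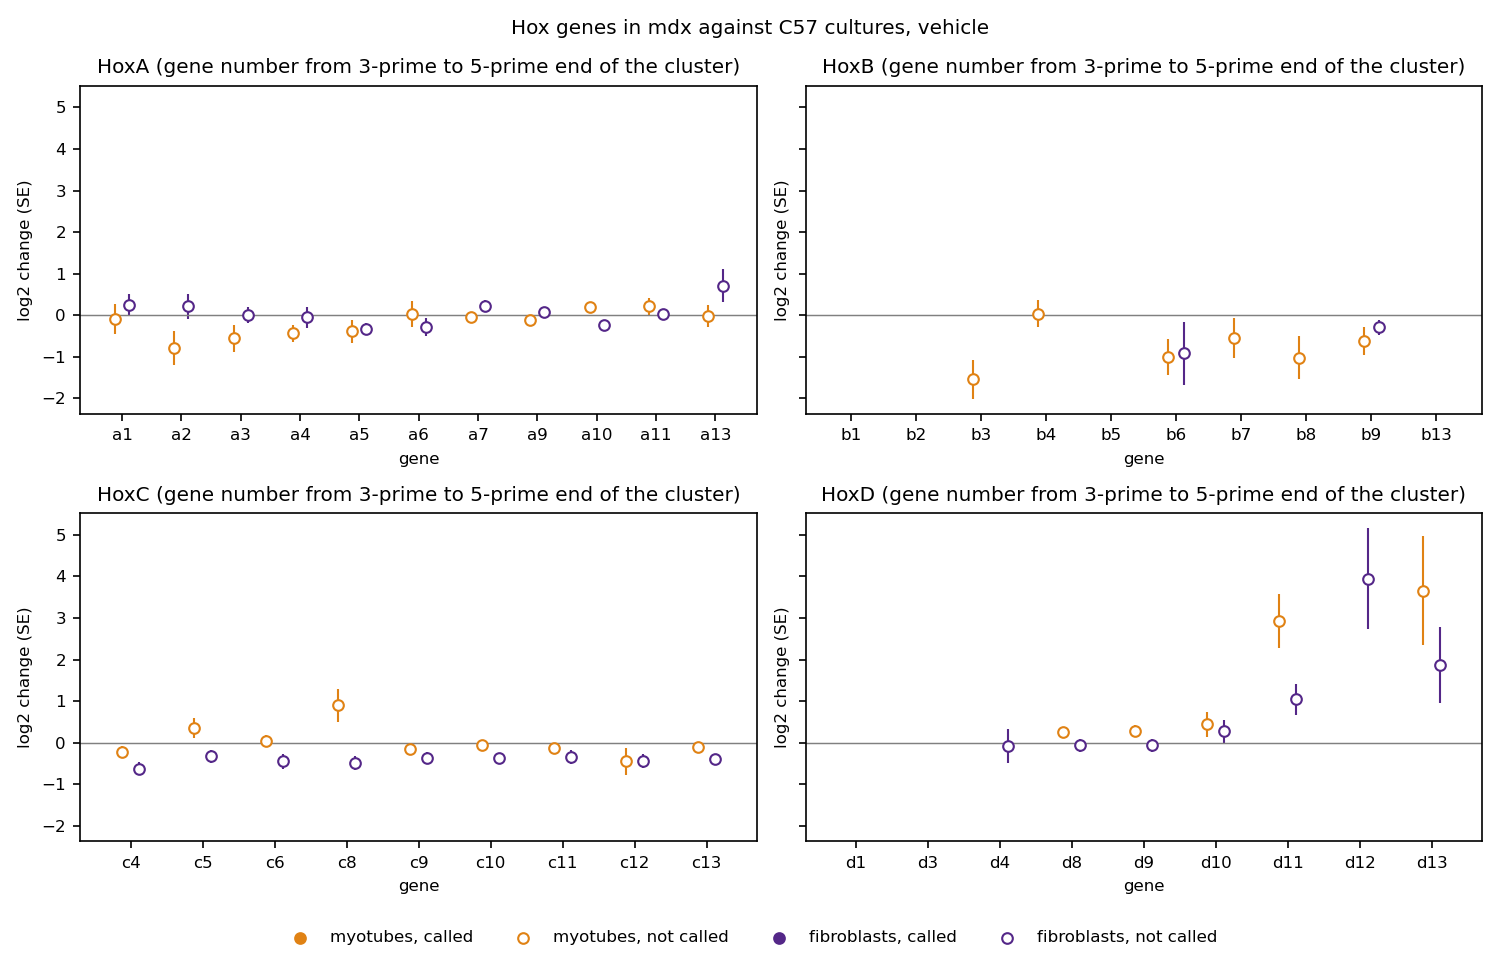
Log2 change of each tested Hox gene in mdx against C57 under vehicle, in myotubes (orange) and in fibroblasts (purple), with its standard error; open points did not pass the adjusted p threshold of 0.05, and no point passed. HoxC points in fibroblasts all lie below 0, and Hoxd11, Hoxd12 and Hoxd13 lie furthest above 0 with wide errors.

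In fibroblasts in aldosterone medium 1 of 29 tested members passed edgeR's test, where 1.23% of all genes were called, and DESeq2 called 4. The 1 member was Hoxc5, whose model overlaps 4 other HoxC genes. It had 2.58, 2.31 and 2.67 CPM in mdx fibroblasts, against 4.28, 5.23 and 4.72 CPM in C57 fibroblasts, and fell by 0.92 ± 0.16 (edgeR adjusted p = 0.00725). Without replicate 2 of both lines the call was lost (-0.78, edgeR adjusted p = 0.0999). In vehicle medium 0 of 29 passed edgeR's test, with 11 at an unadjusted p under 0.05 and 1.1% of all genes called, and DESeq2 called 2. There Hoxc5 had 3.86, 3.01 and 3.5 CPM in mdx fibroblasts, against 4.15, 4.48 and 4.31 CPM in C57 fibroblasts, with a log2 change of -0.33 ± 0.15 (edgeR adjusted p = 0.416).

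All 9 HoxC members had a negative log2 change in mdx fibroblasts in both media, with a median of -0.46 in aldosterone medium and -0.40 in vehicle medium, against medians over all genes of 0.0072 and 0.0045. In each medium the lines did not overlap for 7 of the 9, and for 19.8% of all genes in aldosterone medium and 16.9% in vehicle medium. The HoxC RPKM sum was 40.6, 32.8 and 41.0 in mdx against 49.5, 53.0 and 47.8 in C57 fibroblasts in aldosterone medium, and 44.3, 31.3 and 40.2 in mdx against 50.6, 51.2 and 52.0 in C57 fibroblasts in vehicle medium. Each mdx library lay below each C57 library, and mdx replicate 2 was the lowest. In myotubes the HoxC sums of the lines overlapped, at 56.1 to 60.9 RPKM in mdx and 58.0 to 65.5 RPKM in C57. The genes of a cluster are neighbours, and some of their models overlap, so the 9 values cannot be taken as independent. The summed level of 3 cartilage markers moved with the line, at 364 to 813 CPM in mdx fibroblasts and 1066 to 2998 CPM in C57 fibroblasts, lowest in mdx replicate 2, and its part in the HoxC difference was not tested. The HoxD sum had the other order, at 25 to 41.3 RPKM in mdx and 20.2 to 21.9 RPKM in C57 fibroblasts, and Hoxd13 had a log2 change of 1.64 ± 0.91 in aldosterone medium (edgeR adjusted p = 0.483) and 1.87 ± 0.91 in vehicle medium (edgeR adjusted p = 0.485).

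Aldosterone, and the medium of aldosterone-treated myotubes, left the Hox genes without a call by edgeR in all 4 comparisons. In mdx myotubes 0 of 31 members passed, with 0 at an unadjusted p under 0.05, and in C57 myotubes 0 of 31 passed, with 1 at an unadjusted p under 0.05. In mdx and C57 fibroblasts 0 of 29 passed, with 1 and 2 at an unadjusted p under 0.05. DESeq2 called 0 members in each. Of all genes, 0.0127% were called in C57 myotubes and 0% in the other 3 comparisons, so few genes of any kind passed. Same-numbered aldosterone and vehicle libraries were paired in myotubes of both lines. With the replicate number as a block, 2 members fell in C57 myotubes, where 4.98% of all genes were then called: Hoxc6, with 18.0, 16.7 and 17.5 CPM under aldosterone against 24.4, 21.0 and 24.3 CPM under vehicle (-0.40, edgeR adjusted p = 0.00789), and Hoxd8, with 37.8, 35.4 and 40.9 CPM under aldosterone against 44.6, 45.6 and 47.7 CPM under vehicle (-0.27, edgeR adjusted p = 0.019). Neither gene overlapped between the treatments, which held for 6 of the 31 members and for 14.4% of all genes. In mdx myotubes Hoxc6 changed by -0.17 ± 0.13 and Hoxd8 by -0.05 ± 0.13 without the block. With the block, 0 members were called in mdx myotubes, where 2.33% of all genes were, and 0 in mdx fibroblasts.

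Transcripts of proteins that work with or on Hox genes were also compared between the cell types. Of 9 TALE cofactors, the homeodomain partners that bind DNA beside Hox proteins, 3 were higher and 4 lower in myotubes in each line. On the log2 scale Meis3 fell by 0.92 ± 0.12 in mdx and 1.21 ± 0.12 in C57 myotubes, whereas Pbx2 rose by 0.74 ± 0.09 in mdx and 0.84 ± 0.09 in C57 myotubes. Of 19 Polycomb group genes, whose products keep silent Hox genes off, 7 were higher and 6 lower in mdx, and 6 higher and 8 lower in C57. Pcgf2 and Cbx6 fell by 0.99 and 1.11 in mdx and by 0.96 and 1.21 in C57, and Ezh1, a Polycomb methyltransferase of non-dividing cells, rose by 0.80 in mdx and 0.98 in C57. Of 10 genes of the Trithorax side, which keep Hox genes on, 2 were higher and 4 lower in each line, among them Men1, which fell by 1.08 in mdx and 1.23 in C57. Each change named here passed edgeR's test. Over all genes, 70.5% in mdx and 74.7% in C57 were called between the cell types. Calls in these lists were thus about as common as among genes of any kind, and no protein was measured.

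Of 11 limb and axis position factors, 7 passed the filter on low counts, and 6 of these were called lower in mdx and 7 in C57 myotubes. In myotube libraries taken alone 4 passed, so the other 3 were tested because of their level in fibroblasts. The shares of all genes called lower in myotubes were 35.1% in mdx and 38% in C57, and those called higher were 35.5% and 36.7%. Pitx1, which specifies hindlimb identity, had 17.0, 19.8 and 12.6 CPM in mdx myotubes, against 132, 102 and 118 CPM in mdx fibroblasts. Its C57 values were 2.85, 7.06 and 8.28 CPM in myotubes, against 146, 142 and 136 CPM in fibroblasts. Tbx4, the hindlimb T-box factor, fell by 2.54 ± 0.23 in mdx and 3.75 ± 0.25 in C57 myotubes, and Gli3 fell by 1.92 ± 0.12 and 1.84 ± 0.12. Tbx5, the forelimb T-box factor, had 2.90 to 5.08 CPM in mdx and 3.14 to 5.04 CPM in C57 vehicle-medium fibroblasts, below Tbx4 at 53.1 to 60.7 and 52.8 to 54.4 CPM on the same scale, which is not per length. Hotair, the non-coding RNA between Hoxc11 and Hoxc12, had 2.69 to 3.06 CPM in mdx myotubes against 0.582 to 0.799 CPM in mdx fibroblasts, and rose by 2.07 ± 0.25 in mdx and 2.16 ± 0.24 in C57 myotubes (edgeR adjusted p = 2.36e-07 and 4.33e-08). Of the 24 protein-coding neighbours of the clusters, 3 on each side, 21 were tested, with 14 higher and 4 lower in mdx and 14 higher and 6 lower in C57 myotubes. No member of the TALE, Polycomb, Trithorax or limb lists was called by edgeR between lines or between treatments without the block. With the block, 1 TALE cofactor was called lower with aldosterone in C57 myotubes, where 4.98% of all genes were called. Tbx4 was then called higher in mdx than in C57 vehicle myotubes (edgeR adjusted p = 0.0318), although replicate numbers do not pair the lines.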

How the data were processed

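Bulk RNA sequencing of 24 libraries in 8 groups was analysed. Raw counts per gene were deposited, made with featureCounts 1.5.0-p3 on mm39 per the submitters' processing notes. The sources used here name neither the aligner nor the annotation release. Libraries were poly(A), non-directional, per the labels' protocols. The deposited FPKM values equal count per gene length up to 1 factor per library (largest deviation 9.86e-07% for genes with 100 counts or more) and were not used in tests. The table held 0 columns without a sample.

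Counts were tested in R 4.3.3 with edgeR 4.0.16 (default filter on low counts, TMM scaling, robust quasi-likelihood test, Benjamini-Hochberg adjustment over all genes kept, threshold 0.05). Cell types were compared in a fit of all 24 libraries (17864 genes), lines and treatments within 12 libraries of a cell type (15763 genes in myotubes, 16671 in fibroblasts). Each standard error is the log2 change divided by the square root of F, an approximation. DESeq2 1.42.0 was an alternative. The test was tested on simulated data, which held no effect of the replicate number, so that check does not cover libraries that share one.

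Same-numbered aldosterone and vehicle libraries were taken as paired where every correlation of their deviations passed 0.1. They did in C57 myotubes (0.359 to 0.704), mdx myotubes (0.482 to 0.673) and mdx fibroblasts (0.106 to 0.299), and not in C57 fibroblasts (-0.0176 to 0.121 over all genes, though 0.516 to 0.717 over the Hox genes alone), between lines or between cell types. Each p-value sets a difference of group means against the spread between these libraries. Outside the replicate block, the tests treated paired libraries as independent.

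Members given in full were the 3 highest per length in each cell type, members called between lines, and the 5 largest increases and decreases between cell types. Other lists name up to 4 genes by smallest adjusted p. The members and lists were chosen with earlier results of these data known. Other genes named (Hoxa4, Hoxb9, Hoxd9, Hoxd10, Hoxd11 and Hoxd13 between lines, Hoxc6, Hoxc12, Hoxd8, Evx2 and the cluster sums) were chosen after their values were seen.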

Additional observations from a re-analysis of the deposited data

How the results depend on the processing

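Under RLE scaling, no filter on low counts, DESeq2, the replicate block and each library left out in turn, the counts of Hox genes called between cell types stayed within 1.5 times the values given, and none of the named changes reversed. The counts of Hox genes expressed per group did so with a minimum of 0.5 or 2 CPM, with unscaled library totals and with each library left out. The counts between lines were small and moved. In vehicle myotubes 1 member (Hoxd11) was called with no filter, with DESeq2 and with the replicate block, and 0 to 1 with a library left out (Hoxd11 without mdx replicate 1). In aldosterone myotubes 1 was called with no filter and with DESeq2 (Hoxd11), and 2 with the block (Hoxd8 and Hoxd11). In vehicle-medium fibroblasts 1 was called with no filter (Hoxc4), 2 with DESeq2 (Hoxc4 and Hoxd12), 0 with the block, 0 to 2 with a library left out (Hoxc4 and Hoxc6 without mdx replicate 1, Hoxc4 without C57 replicate 1), and 1 without replicate 2 of both lines (Hoxd13), an alternative chosen after seeing the data. In aldosterone-medium fibroblasts 3 were called with no filter (Hoxc5, Hoxc9 and Hoxc13), 4 with DESeq2 (Hoxc5, Hoxc6, Hoxc9 and Hoxd11), 2 with the block (Hoxc5 and Hoxd11), and 0 without replicate 2. Replicate numbers do not pair the lines, so the block there rests on a shared number only. In C57 myotubes the block raised the count for aldosterone to 2, and it changed no other aldosterone count. The causes of these moves were not tested. Low counts limit Hoxb3, Hoxb4, Hoxb5, Hoxb6, Hoxb7 and Hoxb8 in fibroblasts and Hoxd11 to Hoxd13 in C57 myotubes.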
